A study of Homo sapiens and Mus musculus with 24 samples.

Results

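CDKN1A, MDM2, GADD45A, BBC3, BTG2, SESN1, SESN2, PPM1D, TP53INP1 and FAS are 10 genes known to be switched on by the transcription factor p53, and the amount of their RNA was followed in 4 cell types with and without UV irradiation. The genes were taken by symbol, with no threshold on a measured value, and were found as 10 of 58381 annotated human genes and, by the same symbol ignoring case, as 9 of 53715 mouse genes. The mouse counterpart of TP53INP1 carries another symbol, Trp53inp1, and its values stand beside the 9 as an addition. HepG2 is a human hepatocellular carcinoma line with intact p53, and HEK293 is a human embryonic kidney line in which proteins of the transforming virus bind p53. The labels name HEK293, whereas the study's methods describe the growth of HEK293T, a derivative that also carries the SV40 large T antigen, which binds p53 as well. The mouse samples were Neuro2a, a line from a neuroblastoma, and HippCulture, a primary culture of hippocampal neurons from C57/BL6NCr mouse embryos (E16.5). Each cell type had 3 nonirradiated and 3 UV-irradiated samples, 24 samples in 8 groups. No group differed in genotype from its control, and per the methods all HippCulture cells had been treated with AraC, which kills dividing cells, against glia. Irradiated cells were exposed on ice, all cells were lysed in TRIzol, and the RNA of the aqueous phase was sequenced after removal of ribosomal RNA. RNA that UV has joined to protein leaves the aqueous phase, so a fold change here depends on recovery. The study also proposes that UV crosslinks hinder reverse transcription. In HepG2 it found that proteinase K before extraction restored the total RNA recovered after UV and part of the MALAT1 RNA. No sample here is labelled as treated with proteinase K. For the genes followed here, less RNA in the cell, less RNA recovered from it and less RNA copied into cDNA cannot be told apart. The labels number the samples as replicates and the study calls them biological triplicates, but neither says that they came from separate cultures or litters, so the p-values measure the spread between these samples.

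p53 is a tumor suppressor that is kept at a low level by the ubiquitin ligase MDM2 and is stabilized when DNA is damaged. It then binds a response element near its target genes and raises their transcription. Some targets halt the cell cycle, some promote cell death, some limit metabolism and oxidative damage, and MDM2 and PPM1D close the loop by turning p53 off again. In cells whose p53 is bound by viral proteins this transcription is blunted. The comparison of HepG2 with HEK293 asks whether the targets differ in level, or in the change of their reads after UV, between such lines. The methods name no incubation between the irradiation on ice and the extraction. Whether p53 raised the transcription of any gene after UV was not tested.

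The p53 response element consists of a pair of copies of a half-site of 10 bases, with few or no bases between them. The window from 5000 bases before to 5000 bases after each gene start was searched on both strands for the best match to the consensus of 20 letters, with a spacer of at most 1 base and with the central C and G of both half-sites required. The elements below belong to genes whose reads rose, CDKN1A and GADD45A, and to genes whose reads fell, MDM2 and Trp53inp1, after UV. Capitals mark the central letters of each half-site, and each sequence is written on the strand of its gene. Gene start here means the outermost exon end among all annotated transcripts of the gene, and exon means an exon of any of them. Single transcripts may start elsewhere, and distances to their starts were not computed.
CDKN1A, hg38 chr6:36676449-36676468, across the annotated gene start, 18 of 20 letters matched: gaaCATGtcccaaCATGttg
GADD45A, hg38 chr1:67686775-67686794, intron, 19 of 20 letters matched: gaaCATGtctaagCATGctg
MDM2, hg38 chr12:68808923-68808942, intron, 18 of 20 letters matched: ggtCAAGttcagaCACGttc
Cdkn1a, mm10 chr17:29090928-29090947, 42 bases upstream of the gene start, 19 of 20 letters matched: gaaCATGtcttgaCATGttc
Mdm2, mm10 chr10:117710105-117710124, exon, 17 of 20 letters matched: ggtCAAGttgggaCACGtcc
Trp53inp1, mm10 chr4:11155112-11155132, 1309 bases upstream of the gene start, 20 of 20 letters matched with a spacer of 1: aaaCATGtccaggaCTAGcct

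FAS and BTG2 also held a match of 18 letters, BBC3, SESN1, SESN2 and PPM1D one of 17, and TP53INP1 one of 16. In mouse Fas held one of 18, Bbc3, Sesn1 and Ppm1d one of 17, and Gadd45a, Btg2 and Sesn2 one of 16. A match of at least 16 letters stood in 93.5% of human and 93.7% of mouse windows. Of the windows around 19760 human protein-coding genes, 58.7% held a match of at least 17 letters, 14.7% of at least 18 and 2.28% of at least 19. Of 21877 mouse windows, 63.5% held at least 17, 21.9% at least 18, 4.37% at least 19 and 0.471% all 20. A match is a description of the letters in the window and says nothing of binding in these cells.

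Samples of HepG2 held 36573473 to 53511592 counts, and those of the other cell types 6910907 to 11188033. HepG2 libraries were run on another sequencer model, so the line and the sequencer cannot be told apart. All 6 hepatocyte markers reached 1 CPM (counts relative to the library total) in nonirradiated HepG2 and none did in HEK293, whereas 4 of 6 embryonic kidney markers did in HEK293 and 3 of 6 in HepG2. In Neuro2a 6 of 8 neuroblastoma markers and 3 of 9 markers of glia, microglia and endothelium did. All 8 hippocampal neuron markers reached it in HippCulture, and so did 7 of these 9, which summed to 587 to 689 CPM beside 2312 to 2673 CPM for the neuron markers. Of the microglia markers Cx3cr1 was at most at 0.218 CPM there and Csf1r at 5.61 to 6.41 CPM, with 8.21 to 8.89 CPM of Csf1r in Neuro2a, and the endothelial marker Cldn5 was at most at 0.109 CPM. The summed neuron markers were at 975 to 1301 CPM in the irradiated HippCulture samples, and the summed hepatocyte markers went from 47000 to 51590 CPM to 27180 to 28090 CPM in HepG2. The part of these shifts in the values below was not tested.

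Single samples stood apart from the others of their group, by a chi-square statistic of their counts per degree of freedom, which also grows with depth. Nonirradiated HepG2 replicate 1 was at 112 and 83 against replicates 2 and 3, which were at 3.01 with each other. Irradiated HEK293 replicate 1 was at 36.9 and 43.3 against replicates 2 and 3, which were at 4.17, and nonirradiated HEK293 replicate 1 at 18.4 and 22.7 beside 5.22. Without nonirradiated HepG2 replicate 1 the same 7 of the 10 genes passed after UV, with CDKN1A at 0.55, GADD45A at 0.77, BBC3 at 1.13, FAS at 0.35, SESN2 at 0.67, MDM2 at −1.65 and TP53INP1 at −2.34 on the log2 scale. In that fit 7849 of all 19778 genes were called higher and 8789 lower. Without irradiated HEK293 replicate 1 the same 6 genes passed, with CDKN1A at 0.70, GADD45A at 0.80, BBC3 at 1.41, SESN2 at 0.67, MDM2 at −1.18 and TP53INP1 at −1.87. There 5024 of all 20472 genes were called higher and 5100 lower. Values with all samples are given below, and results that rest on 1 sample are named there.

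In HepG2, 7 of the 10 genes passed the test after UV. BBC3, GADD45A, SESN2, CDKN1A and FAS rose by 1.41- to 2.07-fold, and MDM2 and TP53INP1 fell to 0.336 and 0.193 of their nonirradiated level. PPM1D, BTG2 and SESN1 had log2 fold changes between 0.00 and 0.16 and did not pass. Across all 20117 genes tested 38.1% were called higher and 40.7% lower, 78.8% in all, so 7 of 10 is no more than the share among all genes. All genes here include noncoding ones, and 13535 of them were mRNAs with a reference transcript, which are set out by length below. The test was edgeR's quasi-likelihood test with an adjusted p under 0.05 over all genes, and values are relative to the bulk of the RNA (TMM scaling), where the median log2 fold change of all genes was −0.08. With library sizes alone that median moved to −1.38, and the 5 genes that rose then had log2 fold changes between −0.81 and −0.26, each still above the median.

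CDKN1A (ENSG00000124762.13, chr6:36676460-36687339) encodes p21, an inhibitor of cyclin-dependent kinases that halts the cell cycle. It was at 23.4, 29.1 and 30.04 CPM in the nonirradiated and 46.0, 45.2 and 45.3 CPM in the irradiated HepG2 samples, scaled by TMM over the 6 samples. Every irradiated sample lay above every nonirradiated one, as in 39.6% of all genes, and the log2 fold change was 0.73 ± 0.10 (SE, n = 3 against 3, edgeR adjusted p = 0.00013). GADD45A (ENSG00000116717.11, chr1:67685061-67688338), a stress sensor named for growth arrest and DNA damage, was at 8.59, 10.5 and 11.5 CPM without and 19.6, 18.5 and 21.1 CPM with UV. The groups did not overlap, and the log2 fold change was 0.95 ± 0.12 (edgeR adjusted p = 6.6e-05). BTG2 (ENSG00000159388.5, chr1:203305491-203309602), which restrains proliferation, was at 5.02, 6.35 and 5.62 CPM without and 5.47, 6.19 and 6.09 CPM with UV, so that the groups overlapped. Its log2 fold change of 0.06 had a 95% interval from −0.22 to 0.33.

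BBC3 (ENSG00000105327.17, chr19:47220822-47232766) encodes PUMA, a BH3-only protein that triggers apoptosis through mitochondria. Its HepG2 samples were at 5.61, 4.20 and 4.12 CPM without and 9.87, 9.25 and 9.57 CPM with UV. This was the largest rise among the 10 genes, 1.05 ± 0.13 on the log2 scale (edgeR adjusted p = 9.1e-05), with no overlap between the groups. FAS (ENSG00000026103.21, chr10:88990582-89015785), the death receptor at the cell surface, was at 7.47, 9.03 and 8.52 CPM and then at 12.3, 11.03 and 12.01 CPM. It rose by 0.50 ± 0.10 (edgeR adjusted p = 0.0015), again without overlap. TP53INP1 (ENSG00000164938.13, chr8:94925972-94949411), a stress-induced protein that promotes p53-dependent cell death and autophagy, was at 21.3, 16.9 and 17.7 CPM without and at 3.99, 2.61 and 4.11 CPM with UV. The 3 irradiated samples were all far below the others, where 42.8% of all genes were lower without overlap, and the log2 fold change was −2.38 ± 0.17 (edgeR adjusted p = 2.1e-06).

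The sestrins restrain growth signaling through mTORC1 and protect against oxidative damage, and of the 2 in the set SESN2 passed in HepG2. SESN2 (ENSG00000130766.4, chr1:28259527-28282491) was at 15.1, 15.5 and 17.1 CPM without and 27.9, 26.7 and 27.01 CPM with UV. It rose by 0.78 ± 0.08 (edgeR adjusted p = 1.6e-05), without overlap. SESN1 (ENSG00000080546.13, chr6:108986437-109094819) was at 14.4, 19.01 and 18.7 CPM and at 19.8, 19.9 and 18.7 CPM, which overlapped, and its log2 fold change of 0.16 had a 95% interval from −0.09 to 0.42. Whether SESN1 and SESN2 differed from each other was not tested.

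MDM2 (ENSG00000135679.23, chr12:68808176-68850686), the ubiquitin ligase of p53, had the most CPM of the 10 genes. It was at 174.5, 175.7 and 176.7 CPM in the nonirradiated HepG2 samples and at 61.8, 58.9 and 56.1 CPM in the irradiated ones. The groups lay far apart, and the log2 fold change was −1.57 ± 0.07 (edgeR adjusted p = 2.9e-07). PPM1D (ENSG00000170836.11, chr17:60600183-60666280), the WIP1 phosphatase that removes activating phosphates from p53 and its kinases, was at 16.47, 17.9 and 17.04 CPM and at 17.4, 17.03 and 17.1 CPM. Its values overlapped, with a log2 fold change of 0.00 and a 95% interval from −0.16 to 0.17. Limited to genes with at least 10 counts in every sample, the PPM1D value was −0.27 with an edgeR adjusted p of 0.0049.

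**Figure D1:**
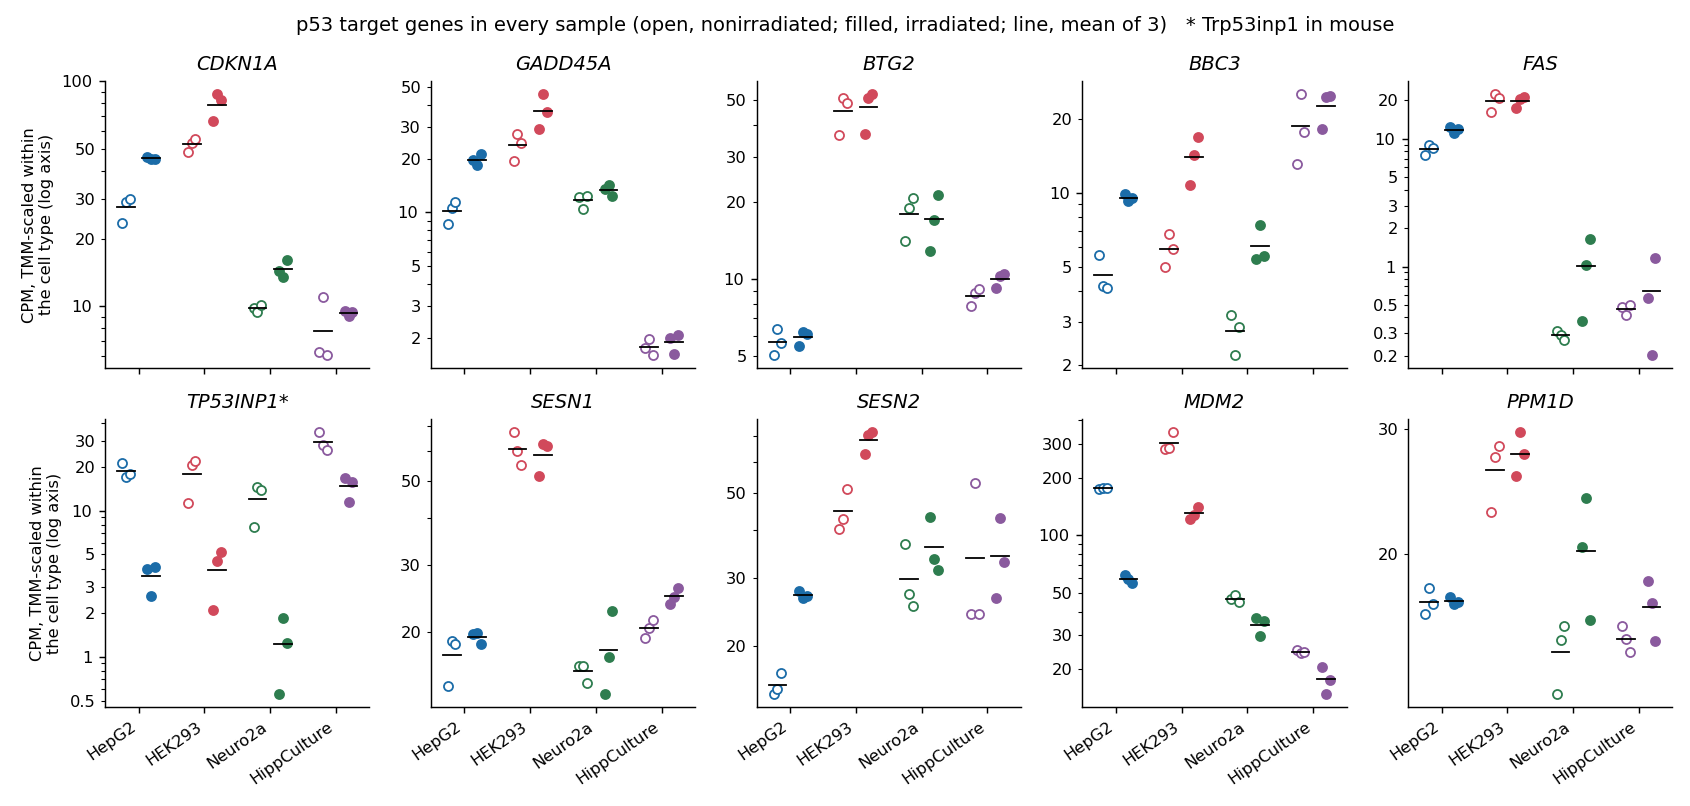
CPM of the 10 p53 target genes in each sample, TMM-scaled within each cell type and on a log axis, with open circles for nonirradiated and filled circles for irradiated samples and a line at the mean of 3. In HepG2 the MDM2 samples fall from 174.5 to 176.7 CPM to 56.1 to 61.8 CPM, whereas those of CDKN1A rise from 23.4 to 30.04 CPM to 45.2 to 46.0 CPM. Levels of different cell types are not on one scale here, and with library sizes alone the rise of CDKN1A becomes a fall of 0.58 on the log2 scale.

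In HEK293 the same 2 genes fell and 4 of the 5 rose. BBC3, GADD45A, SESN2 and CDKN1A were called higher by 1.503- to 2.38-fold, MDM2 and TP53INP1 were at 0.427 and 0.225 of their nonirradiated level, and BTG2, PPM1D, SESN1 and FAS did not pass. Of all 20472 genes tested 24.2% were called higher, 26.4% lower and 50.6% in all, beside 6 of the 10. Library sizes alone moved the median of all genes from −0.08 to −0.84 in HEK293 and turned CDKN1A, GADD45A and SESN2 to log2 fold changes between −0.17 and −0.11, none of them called, while BBC3 stayed at 0.50 (edgeR adjusted p = 0.11).

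CDKN1A was at 48.6, 53.3 and 55.3 CPM without and at 66.2, 87.7 and 82.2 CPM with UV in HEK293. The groups did not overlap, and the log2 fold change was 0.59 ± 0.14 (n = 3 against 3, edgeR adjusted p = 0.0082). BBC3 went from 4.99, 6.79 and 5.91 CPM to 10.8, 14.3 and 16.9 CPM, a log2 fold change of 1.25 ± 0.22 (edgeR adjusted p = 0.0013). SESN2 went from 40.3, 42.8 and 51.3 CPM to 62.8, 70.6 and 71.6 CPM, or 0.61 ± 0.14 (edgeR adjusted p = 0.0058). For both of these genes every irradiated sample was above every nonirradiated one, as for 27.1% of all genes.

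GADD45A was at 19.3, 27.3 and 24.4 CPM without and at 29.1, 45.8 and 36.4 CPM with UV in HEK293, a change of 0.65 ± 0.20 (edgeR adjusted p = 0.022). This call was lost without nonirradiated replicate 1 (adjusted p = 0.051), without nonirradiated replicate 3 (adjusted p = 0.054) and without irradiated replicate 2 (adjusted p = 0.078). FAS was at 16.3, 22.4 and 21.1 CPM and at 17.4, 20.5 and 21.1 CPM, which overlapped, and its log2 fold change of −0.02 had a 95% interval from −0.39 to 0.36.

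MDM2 in HEK293 was at 284, 285 and 345 CPM without and at 122, 127 and 141 CPM with UV, which did not overlap, as in 32.1% of all genes in this direction. Its log2 fold change was −1.23 ± 0.14 (edgeR adjusted p = 0.00015). TP53INP1 went from 11.2, 20.6 and 21.7 CPM to 2.10, 4.52 and 5.20 CPM, or −2.15 ± 0.34 (edgeR adjusted p = 0.00088), on 14 to 47 counts in the irradiated samples. Replicate 1 was the lowest sample in both groups. In HEK293 same-numbered samples deviated together, and with the replicate number as a block the same 6 calls stood. That block also raised the calls among all 20472 genes, to 6688 higher and 7228 lower from 4962 and 5405.

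**Figure D2:**
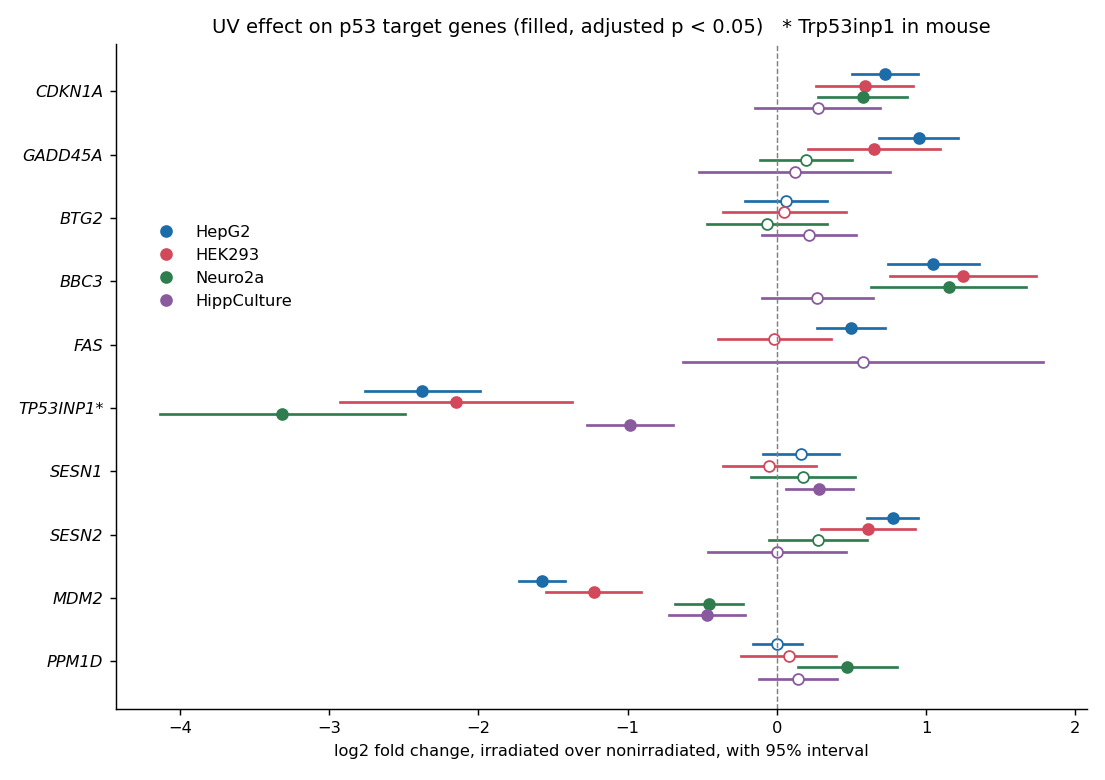
Log2 fold change of each p53 target gene, irradiated over nonirradiated, with its 95% interval from edgeR, in HepG2, HEK293, Neuro2a and HippCulture, filled where the adjusted p was under 0.05. MDM2 and TP53INP1 lie left of 0 in all 4 cell types, and the intervals of HepG2 and HEK293 overlap for every gene. Changes are relative to the bulk of the RNA, and with library sizes alone most points right of 0 move to its left.

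The difference in the UV effect between HepG2 and HEK293 was then tested itself, as an interaction in 1 model over the 12 human samples. None of the 10 genes passed, where 7.95% of 16759 genes tested did, 3.1% with a higher and 4.85% with a lower value in HepG2. At an unadjusted p under 0.05 the count was 1, MDM2, where 23.6% of all genes reached it, and DESeq2 called 1, MDM2 as well, where it called 12% of all genes. MDM2 had a difference of −0.45, a deeper fall in HepG2, with a 95% interval from −0.79 to −0.11 (edgeR adjusted p = 0.10). It passed with the replicate number as a block (−0.45, edgeR adjusted p = 0.014), in DESeq2 (−0.47, adjusted p = 0.023), with library sizes alone (−0.89, edgeR adjusted p = 0.0054) and without nonirradiated HEK293 replicate 3 (−0.56, edgeR adjusted p = 0.045). The block called 2092 of the 16759 genes higher and 1443 lower in HepG2, where the main fit called 520 and 812. Library sizes alone called 120 and 2930, and the fit without that replicate 332 and 651 of 16739. FAS had the largest positive difference, 0.41, with an interval from −0.02 to 0.84 (edgeR adjusted p = 0.23). For CDKN1A the difference was 0.03 (−0.36 to 0.43), for GADD45A 0.20 (−0.33 to 0.73), for BBC3 −0.31 (−0.86 to 0.24) and for SESN2 0.06 (−0.28 to 0.41). These intervals leave room for differences of up to 0.4 to 0.9 on the log2 scale in one direction, so the UV effect is not shown to be alike in the lines.

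Before irradiation the p53 target genes were not higher as a group in HepG2 than in HEK293. Scaled over the 12 human samples, 2 of the 10 were called higher in HepG2, 5 lower and 3 neither way, where 40.1% of 21889 genes tested were higher, 36.4% lower and 76.4% called in all. The median log2 difference of the 10 was −0.27, and that of all genes was 0.08. CDKN1A and MDM2 were among the 3 that did not pass. With library sizes alone the median of all genes moved to −0.45 and MDM2, PPM1D and CDKN1A were called lower in HepG2, at −0.53, −0.35 and −0.66.

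Per length of the exons (RPKM), MDM2 and CDKN1A led in both lines. MDM2 was at 17.9 ± 0.25 RPKM in HepG2 and 17.9 ± 2.14 RPKM in HEK293 (SD, n = 3 each), and the samples overlapped, with a log2 difference of 0.00 and a 95% interval from −0.24 to 0.25. CDKN1A was at 12.2 ± 1.67 RPKM in HepG2 and 13.4 ± 0.95 RPKM in HEK293, again overlapping, with a difference of −0.13 (−0.40 to 0.15). In HepG2 GADD45A at 6.68 RPKM and SESN2 at 6.23 RPKM came next, then PPM1D, SESN1 and TP53INP1 between 4.45 and 4.61 RPKM, and BTG2, FAS and BBC3 between 1.98 and 2.79 RPKM. Within each of these steps neighbours in the order overlapped, and between the steps they did not. The order rests on the length used, that of all annotated exons. It was 1.774 times that of the reference transcript for MDM2, 1.723 times for BBC3, 1.53 times for GADD45A and 0.904 times for SESN1. An order by transcript length was not made. In HEK293 BTG2 at 12.8 RPKM stood next to CDKN1A, followed by SESN2, SESN1 and GADD45A between 8.91 and 10.1 RPKM, and these 5 formed a run of overlapping neighbours. PPM1D, FAS, TP53INP1 and BBC3 were at 1.44 to 4.05 RPKM there, and each also overlapped the next.

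BTG2 differed most between the lines. It was at 2.79 ± 0.36 RPKM in HepG2 and 12.8 ± 2.20 RPKM in HEK293, with no overlap, as in 37.2% of all genes in this direction, a log2 difference of −2.20 ± 0.17 (SE, n = 3 against 3, edgeR adjusted p = 9.9e-09). SESN1 was at 4.60 ± 0.71 and 9.25 ± 0.87 RPKM, or −1.01 ± 0.13 (edgeR adjusted p = 4.2e-06). SESN2 was at 6.23 ± 0.41 and 10.1 ± 1.36 RPKM, or −0.70 ± 0.11 (edgeR adjusted p = 5.0e-05). The samples of both sestrins did not overlap between the lines either. BTG2 and both sestrins were thus lower in HepG2, whereas CDKN1A, also a gene of growth arrest, did not pass. Line, p53 status and sequencer cannot be told apart here.

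FAS was at 2.66 ± 0.28 RPKM in HepG2 and 3.65 ± 0.60 RPKM in HEK293, a difference of −0.46 ± 0.14 (edgeR adjusted p = 0.0077). TP53INP1 was higher in HepG2, at 4.45 ± 0.52 against 2.45 ± 0.80 RPKM, or 0.86 ± 0.24 (edgeR adjusted p = 0.0044), but was not called with library sizes alone (0.32, adjusted p = 0.28). The samples of FAS and of TP53INP1 did not overlap between the lines, and 41.1% of all genes were higher in every HepG2 sample. GADD45A, at −0.41 (edgeR adjusted p = 0.038), and BBC3, at 0.45 (edgeR adjusted p = 0.037), passed narrowly. GADD45A lost the call without HepG2 nonirradiated replicate 1 or 2 and without HEK293 nonirradiated replicate 2 or 3, with values between −0.43 and −0.28. BBC3 lost it without HepG2 nonirradiated replicate 1, HEK293 nonirradiated replicate 1 or 3 or any 1 of the 6 irradiated samples, with values between 0.32 and 0.43, and with DESeq2's size factors (0.38, edgeR adjusted p = 0.077), and was at −0.09 with library sizes alone.

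**Figure D3:**
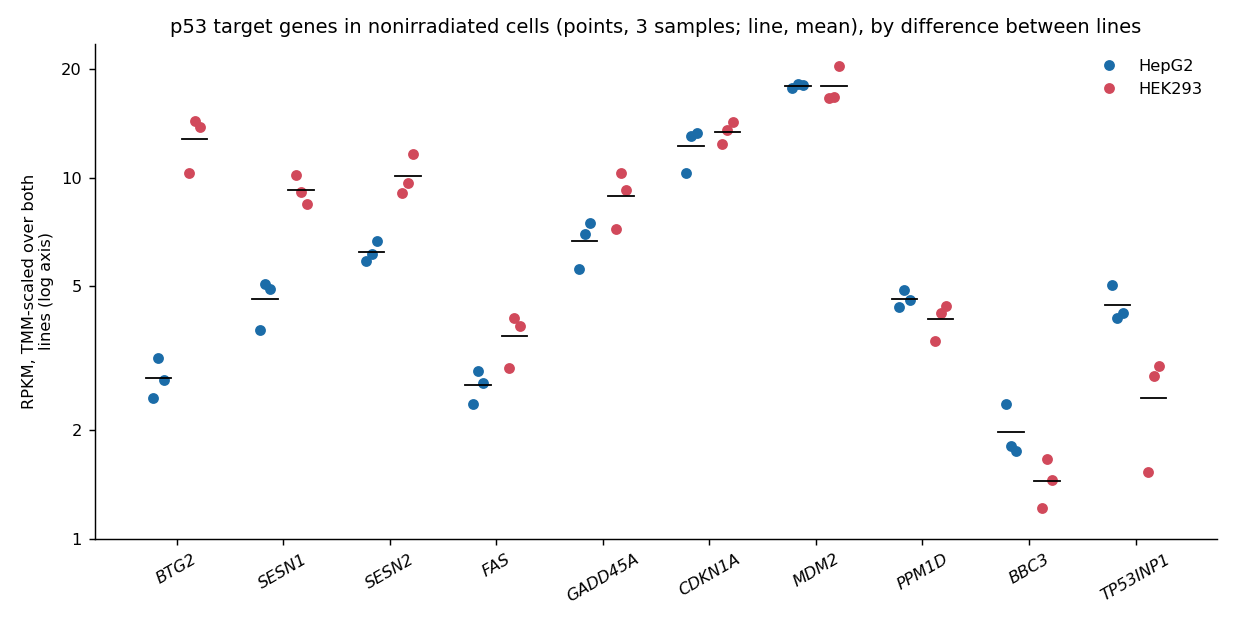
RPKM of the 10 p53 target genes in the nonirradiated HepG2 and HEK293 samples on a log axis, TMM-scaled over both lines, with a point per sample and a line at the mean of 3, ordered by the difference between the lines. BTG2 stands apart at 2.79 against 12.8 RPKM, and MDM2 sits at 17.9 RPKM in both. With library sizes alone the HepG2 values move down as a whole and BBC3 changes side.

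CDKN2A, whose products include the MDM2 inhibitor ARF, was read at 0.637 to 1.25 CPM in nonirradiated HepG2 and 31.4 to 34.7 CPM in nonirradiated HEK293, scaled over both lines. MDM4, the partner of MDM2 in holding p53 down, was at 65.2 to 80.3 CPM and 44.7 to 61.7 CPM.

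In Neuro2a, Bbc3, Cdkn1a and Ppm1d rose and Mdm2 fell among the 8 of 9 genes that could be tested, where 28.9% of 17425 genes were called higher, 33.0% lower and 61.9% in all. Bbc3 was at 3.19, 2.19 and 2.85 CPM without and at 5.39, 7.39 and 5.54 CPM with UV, which did not overlap, a log2 fold change of 1.15 ± 0.24 (SE, n = 3 against 3, edgeR adjusted p = 0.00090). Cdkn1a went from 9.87, 9.40 and 10.2 CPM to 14.3, 13.6 and 16 CPM, or 0.58 ± 0.14 (edgeR adjusted p = 0.0025). Mdm2 went from 46.3, 48.9 and 44.8 CPM to 36.8, 29.8 and 35.5 CPM, or −0.45 ± 0.11 (edgeR adjusted p = 0.0021). The groups of Cdkn1a and of Mdm2 did not overlap either, as for 30.4% of all genes in the rising and 37.0% in the falling direction.

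Ppm1d in Neuro2a was at 12.8, 15.2 and 15.9 CPM without and at 20.5, 24.03 and 16.2 CPM with UV, or 0.47 ± 0.15 (edgeR adjusted p = 0.016). Irradiated replicate 3 lay just above the nonirradiated samples, and the call was lost without nonirradiated replicate 1 (0.39, adjusted p = 0.052) or irradiated replicate 2 (0.33, adjusted p = 0.11). Gadd45a, Btg2, Sesn1 and Sesn2 had log2 fold changes between −0.07 and 0.28 and did not pass, though Sesn2 passed without nonirradiated replicate 1 (0.46, edgeR adjusted p = 0.012). Fas was read at 3 to 4 counts in the nonirradiated samples, below the level set for testing. Trp53inp1 fell from 7.70, 14.4 and 13.8 CPM to 0.558, 1.85 and 1.23 CPM, or −3.31 ± 0.38 (edgeR adjusted p = 4.1e-06), on 3 to 9 counts in the irradiated samples. Library sizes alone moved the median of all genes from −0.14 to −1.32 in Neuro2a, and Cdkn1a and Ppm1d then fell by 0.62 and 0.72 on the log2 scale while Bbc3 was at −0.04.

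In HippCulture 2 of the 9 genes passed, where 26.1% of 18488 genes were called higher, 25.9% lower and 52.0% in all. Mdm2 fell from 25.3, 24.4 and 24.5 CPM to 20.6, 14.9 and 17.6 CPM, a log2 fold change of −0.47 ± 0.12 (SE, n = 3 against 3, edgeR adjusted p = 0.0028). Sesn1 rose from 19.4, 20.6 and 21.5 CPM to 23.7, 24.8 and 26.2 CPM, or 0.28 ± 0.11 (edgeR adjusted p = 0.033). The groups of both genes were separate, as in 30.8% of all genes for a fall and 29.3% for a rise, but the call of Sesn1 was lost without nonirradiated replicate 1 (0.27, adjusted p = 0.090), irradiated replicate 2 (0.29, adjusted p = 0.051) or irradiated replicate 3 (0.24, adjusted p = 0.14), and with library sizes alone it was at −0.26. Trp53inp1 fell from 34.3, 28.1 and 26.2 CPM to 16.8, 11.5 and 15.8 CPM, or −0.99 ± 0.14 (edgeR adjusted p = 5.3e-06), without overlap. Library sizes alone moved the median of all genes from −0.04 to −0.59 in HippCulture.

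Nonirradiated replicate 2 of HippCulture stood above the other nonirradiated samples in 3 genes. It held 53.03 CPM of Sesn2 beside 24.3 CPM in both others, 10.96 CPM of Cdkn1a beside 6.29 and 6.06 CPM, and 25.2 CPM of Bbc3 beside 13.1 and 17.7 CPM. The irradiated samples were at 26.7, 42.9 and 33.2 CPM of Sesn2, 9.52, 9.06 and 9.42 CPM of Cdkn1a and 18.2, 24.6 and 24.8 CPM of Bbc3, inside the nonirradiated range. With all samples the log2 fold changes were 0.00, 0.27 and 0.27 and none passed. Without that replicate they were 0.50, 0.63 and 0.57 and all 3 passed (edgeR adjusted p = 0.0029, 0.0032 and 0.0021). In that fit 5 of the 9 genes were called, where 5124 of all 18369 genes were called higher and 4493 lower. Without nonirradiated replicate 1 or irradiated replicate 2 or 3 the count was 1. Of 18309 to 18488 genes tested in those fits, 4176 to 4513 were called higher and 3859 to 4233 lower.

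The UV effect differed between Neuro2a and HippCulture for Trp53inp1, by −2.33 ± 0.45 (SE, edgeR adjusted p = 0.0011), and for none of the 8 genes of the set that were tested, where 24.5% of 14973 genes passed, 8.39% with a higher and 16.1% with a lower value in Neuro2a. DESeq2 called 1 of the 8, Bbc3, at a difference of 0.97 (adjusted p = 0.035), and 22.6% of all genes. At an unadjusted p under 0.05, which 37.0% of all genes reached, the count was also 1, Bbc3, with 0.88 and a 95% interval from 0.16 to 1.596 (edgeR adjusted p = 0.068). Without HippCulture nonirradiated replicate 1 it passed (1.07, edgeR adjusted p = 0.016), where 1103 of 14881 genes were called higher and 2219 lower. For Mdm2 the difference was 0.01, with an interval from −0.32 to 0.34.

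Before irradiation 5 of the 9 genes differed in level between Neuro2a and HippCulture. Gadd45a was at 7.33 ± 0.57 RPKM in Neuro2a and 0.932 ± 0.086 RPKM in HippCulture (SD, n = 3 each), a log2 difference of 2.96 ± 0.18 (SE, edgeR adjusted p = 4.7e-14). Of its exon bases 19.1% are shared with a gene on the opposite strand, and the counting commands name no strand option. Bbc3 ran the other way, at 1.43 ± 0.25 and 8.17 ± 2.604 RPKM, or −2.51 ± 0.22 (edgeR adjusted p = 5.0e-11). Btg2 was at 7.22 ± 1.41 and 2.92 ± 0.25 RPKM, or 1.30 ± 0.16 (edgeR adjusted p = 6.4e-08), and Mdm2 at 10.2 ± 0.62 and 4.53 ± 0.11 RPKM, or 1.17 ± 0.11 (edgeR adjusted p = 1.1e-10). The samples of these 4 genes did not overlap between Neuro2a and HippCulture, as in 41.9% of all genes for a higher and 40.5% for a lower level in Neuro2a.

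Cdkn1a was at 4.89 ± 0.12 RPKM in Neuro2a and 3.25 ± 1.11 RPKM in HippCulture, or 0.59 ± 0.17 (edgeR adjusted p = 0.0028), and did not pass in DESeq2 (0.41, adjusted p = 0.053). The other 4 genes of the set did not pass, so that 4 of 9 were higher and 1 lower in Neuro2a, where 40.6% and 39.4% of 19367 genes were, 80.1% in all. Trp53inp1 was lower in Neuro2a, at 2.06 ± 0.65 against 4.24 ± 0.60 RPKM (−1.05 ± 0.18, edgeR adjusted p = 5.8e-06). By RPKM over all annotated exons, Mdm2 and Sesn2 led in Neuro2a, at 10.2 and 9.54 RPKM. Sesn2 and Bbc3 led in HippCulture, at 9.04 and 8.17 RPKM, and each pair overlapped. Fas came last in both, at 0.179 RPKM in Neuro2a and 0.241 RPKM in HippCulture.

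The 10 human genes differ widely in the length of their mRNAs, a property the choice of genes did not use. GADD45A, BBC3 and CDKN1A have the shortest, of 1352, 1846 and 2117 bases, and MDM2, SESN1 and TP53INP1 the longest, of 7490, 5664 and 5605 bases, in the reference transcripts (MANE Select). The 3′ untranslated region takes 5695 bases of MDM2 and 4507 of TP53INP1, where the median of the 13535 mRNAs tested in HepG2 was 1265 bases and 10% exceeded 4479. These regions hold 23 copies of the pentamer ATTTA in MDM2 and 14 in TP53INP1 (median 2 over all mRNAs), against none in BBC3 and SESN2. The GC content was 39.5% in MDM2, 39.3% in TP53INP1 and 38.0% in FAS, and 69.7% in BBC3 and 59.6% in SESN2 (median 48.8%).

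Across the 10 genes the log2 fold change after UV had a Spearman's ρ with mRNA length of −0.806 in HepG2 and −0.867 in HEK293, and with the length of the 3′ untranslated region of −0.903 and −0.927. The same ρ with mRNA length over all mRNAs tested was −0.608 in HepG2 and −0.642 in HEK293. With the length of the 3′ untranslated region it was −0.503 and −0.532 over all mRNAs. With GC content ρ was 0.745 and 0.879 over the 10 genes, and 0.398 and 0.426 over all mRNAs. The genes are not independent replicates, share their libraries, and their lengths and GC content go together, so these values describe the order of the genes and carry no p. The mouse values leave out Trp53inp1, which has 5404 bases and fell in both mouse cell types, whereas the human values include TP53INP1. The 2 sets of genes are therefore not alike. ρ with length was −0.233 over the 9 mouse genes tested in HippCulture and −0.429 over the 8 in Neuro2a. Over all mRNAs it was −0.555 and −0.591. With the length of the 3′ untranslated region ρ was −0.4 in HippCulture and −0.429 in Neuro2a, beside −0.462 and −0.441 for all mRNAs. With GC content ρ was 0.00 in HippCulture and 0.690 in Neuro2a, beside 0.469 and 0.389 for all mRNAs.

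Set against mRNAs of like length, 6 of the 10 genes lay within the middle 50% in HepG2. The mRNAs tested were split by length into 10 bins of equal number, and the bin from 1772 to 2222 bases had a median log2 fold change of 0.84, with 72.5% called higher, and held BBC3 and CDKN1A at 1.05 and 0.73. GADD45A, at 0.95, fell in the bin with a median of 1.14. MDM2 and TP53INP1 lay below the middle 50% of their bins, at −1.57 where the lower quartile was −1.08 and at −2.38 where it was −0.86. SESN1, at 0.16 in the same bin as TP53INP1, and SESN2, at 0.78 where the upper quartile was 0.57, lay above the middle 50%. In HEK293 MDM2 and TP53INP1 were again below the lower quartile (−1.23 against −1.06, and −2.15 against −0.93), and BBC3 and SESN2 above the upper one. Trp53inp1, with 5404 bases, was below the lower quartile in both mouse cell types, at −3.31 against −1.22 in Neuro2a and −0.99 against −0.63 in HippCulture. Mouse Mdm2, whose annotated mRNA has 3099 bases, was below it in HippCulture, at −0.47 against −0.34, but not in Neuro2a, where the quartile was −0.56. Gadd45a was below the lower quartile in both mouse cell types as well, at 0.20 against 0.27 in Neuro2a and 0.12 against 0.44 in HippCulture. Above the upper quartile were Bbc3 (1.15 against 1.00) and Sesn2 (0.28 against 0.21) in Neuro2a and Sesn1 (0.28 against 0.24) in HippCulture.

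**Figure D4:**
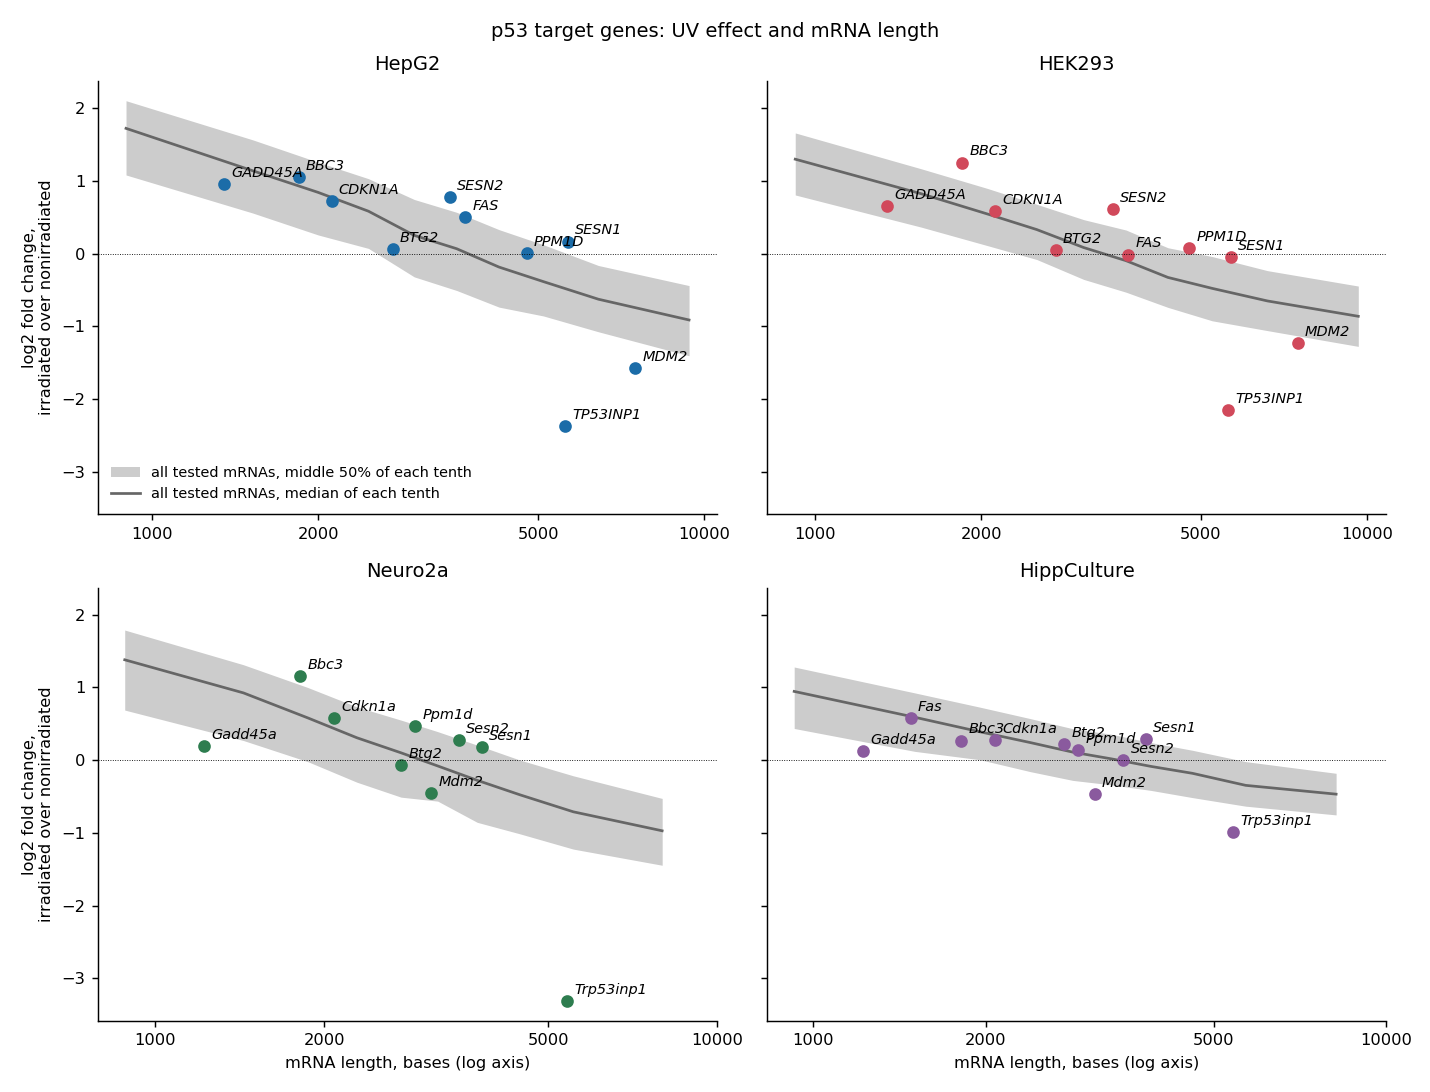
Log2 fold change after UV against mRNA length in bases on a log axis, with a labelled point for each p53 target gene tested and, in grey, the median and middle 50% of all mRNAs in 10 bins by length, for the 4 cell types. The grey median in HepG2 goes from 1.72 in the shortest to −0.91 in the longest bin, and TP53INP1 or Trp53inp1 lies below the band in every cell type. With library sizes alone the points and the band move down with the median of all genes.

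A second list of 23 p53 targets, which like the 10 genes was drawn up with results of these data known, was called in both directions as well. In HepG2 14 of the 23 rose and 8 fell, where 38.1% of all genes rose and 40.7% fell, with a median of 0.51 beside −0.08 for all genes. In HEK293 8 rose and 5 fell (median 0.34), beside 24.2% and 26.4% of all genes. In Neuro2a 8 rose and 3 fell of 18 tested (0.60), beside 28.9% and 33.0%, and in HippCulture 9 rose and 4 fell of 21 (0.21), beside 26.1% and 25.9%. ρ with mRNA length over these genes was −0.667, −0.603, −0.711 and −0.769 in the same order. The genes of this list were not set against mRNAs of like length. ZMAT3, a zinc finger RNA-binding protein, had the lowest value of the list in HepG2, HEK293 and HippCulture, at −1.95, −1.80 and −0.95, and was at −1.22 in Neuro2a, where Rrm2b, a ribonucleotide reductase subunit, was lowest at −1.67. RPS27L, a ribosomal protein homolog, led in HEK293 at 1.83, in Neuro2a at 1.89 and in HippCulture at 1.37.

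In HepG2 the highest of this list were TP53I3, an oxidoreductase, at 1.93 ± 0.12 and FDXR, the ferredoxin reductase of mitochondria, at 1.86 ± 0.10 (SE, edgeR adjusted p = 8.4e-07 and 4.3e-07), and SUSD6 was at −1.42. GDF15, a secreted stress factor, was at 1.496 ± 0.48 in HEK293 (edgeR adjusted p = 0.028) with overlapping samples, and its adjusted p was 0.058 to 0.12 without nonirradiated replicate 1 or 2 or irradiated replicate 2 or 3. EDA2R, a death domain receptor, was at −1.34 in HEK293 and −0.94 in HippCulture, and Phlda3, an inhibitor of AKT signaling, at 1.59 in Neuro2a and 1.13 in HippCulture. Each of these values passed the test. Before irradiation 7 of the 23 were higher and 8 lower in HepG2 than in HEK293, with a median of −0.10, where 40.1% of all genes were higher and 36.4% lower, with a median of 0.08.

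**Figure D5:**
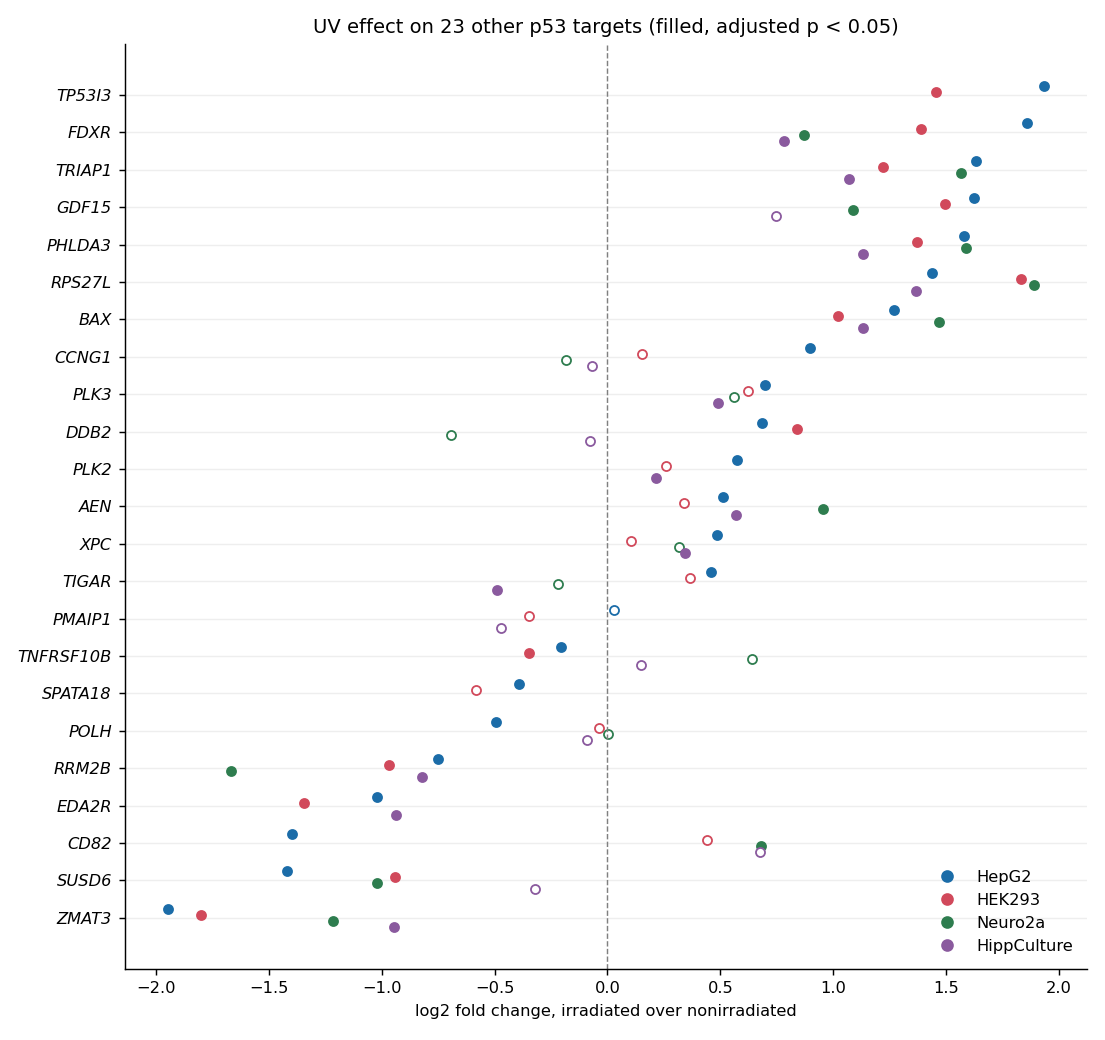
Log2 fold change after UV of 23 other p53 targets, ordered by their value in HepG2, for each of the 4 cell types, filled where the adjusted p was under 0.05 and without a point where the gene was not tested. TP53I3 leads in HepG2 at 1.93 and ZMAT3 is lowest at −1.95. Changes are relative to the bulk of the RNA, and with library sizes alone the points move down with the median of all genes, in HepG2 to −1.38 for that median.

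Of 15 genes of the p53 regulatory circuit, more fell than rose in each cell type. Among all genes, noncoding ones included, more fell than rose in all but HippCulture, by the shares given above. Among mRNAs alone the shares went with length. In HepG2 the shortest bin had 84.6% called higher and 7.68% lower, and the longest 7.25% and 79.0%. The 15 genes were not set against mRNAs of like length. In HepG2 8 fell and 4 rose (median −0.73), in HEK293 6 fell and 3 rose (−0.32), in Neuro2a 10 fell and 2 rose (−0.79), and in HippCulture 7 fell and 1 rose of 14 tested (−0.35). MDM4 had the lowest value in all 4, at −2.80, −2.23, −2.05 and −1.17. The kinases ATM, at −1.62 in HepG2 and −0.69 in HippCulture, and PRKDC, at −1.55 in HEK293 and −1.39 in Neuro2a, came next. CDKN2A rose by 1.93 in HepG2, 1.14 in HEK293 and 1.61 in Neuro2a, and the acetyltransferase KAT5 by 1.11 in HepG2, 0.77 in Neuro2a and 0.58 in HippCulture. KAT5 shares 38.6% of its human exon bases with a gene on the opposite strand, and with library sizes alone it was at −0.19 in HepG2 and −0.42 in Neuro2a. CHEK2, the checkpoint kinase, was at 0.49 in HEK293 (edgeR adjusted p = 0.011) and at −0.27 with library sizes alone. Prkdc in HippCulture was at −0.31 (edgeR adjusted p = 0.028), and the call was lost in 5 of the 6 fits without 1 sample (adjusted p up to 0.15).

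Of 16 relatives of the 10 genes, which are not established p53 targets as a group, 6 rose and 6 fell of 14 tested in HepG2, 5 rose and 6 fell of 16 in HEK293, 5 rose and 9 fell of 15 in Neuro2a, and 6 rose and 6 fell of 16 in HippCulture, where 38.1% and 40.7%, 24.2% and 26.4%, 28.9% and 33.0%, and 26.1% and 25.9% of all genes rose and fell in the same order. BAD, a BH3-only relative of BBC3, rose by 2.28 in HepG2, 1.84 in HEK293 and 1.58 in Neuro2a, and shares 23.7% of its human exon bases with a gene on the opposite strand. GADD45B rose by 1.58 in HepG2 and 1.45 in Neuro2a, and GADD45G by 2.18 in HEK293. SESN3, the third sestrin, fell by 1.25 in HepG2, 1.83 in HEK293 and 0.87 in HippCulture. BCL2L11, which encodes BIM, fell by 1.61 in HepG2, 1.68 in Neuro2a and 1.29 in HippCulture, PPM1A by 1.597 in HEK293 and Cdkn1b, which encodes p27, by 1.78 in Neuro2a. In HippCulture Cdkn1c, which encodes p57, was highest at 1.33 and the receptor gene Tnfrsf1a followed at 1.13. Within the sestrins HepG2 thus held SESN2 at 0.78, SESN1 at 0.16 and SESN3 at −1.25, and with library sizes alone −0.53, −1.15 and −2.55.

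Some of the human genes share exon bases with others, and reads on them were counted for each gene. The share was 9.21% for MDM2, 8.93% for FAS, which overlaps ACTA2 on the opposite strand, 7.09% for SESN1, 4.79% for CDKN1A and 2.52% for BBC3, and none for GADD45A, BTG2, SESN2, PPM1D and TP53INP1. How much these reads add was not tested.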

How the data were processed

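RNA of 24 samples, 3 nonirradiated and 3 UV-irradiated for each of HepG2, HEK293, Neuro2a and HippCulture, was sequenced from the aqueous phase of TRIzol extracts after removal of ribosomal RNA. The authors aligned the reads with TopHat2 2.1.1 and deposited raw counts per gene, made with featureCounts 1.5.3 for HepG2 and 1.6.1 for the others, on GENCODE 28 (hg38) and M17 (mm10), per the submitters' processing notes and the file headers. The counting commands assigned a read to every gene it overlapped and name no strand option.

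Samples were grouped by their labels. Genes whose nonirradiated samples averaged 0.5 CPM or more were tested with edgeR 4.0.16 in R 4.3.3 (TMM, quasi-likelihood test, Benjamini-Hochberg adjustment over all genes tested, threshold 0.05), each cell type alone for the UV effect and both cell types of a species in 1 model for levels and for the difference in UV effect. An exact permutation test of 3 against 3 samples cannot go below p = 0.1 and was not used. CPM and RPKM were scaled by TMM within a cell type or, for levels between cell types, over both. RPKM used the exon lengths of the count files. Alternatives were DESeq2 1.42.0, its size factors, library sizes alone, other filters, a replicate block and leaving out each sample. Gene symbols came from GENCODE 44 and M21, response elements from the hg38 and mm10 sequence around the gene starts, and mRNA features from the same annotations. Tables and plots were made with Python 3.11.15, pandas 2.3.3, numpy 2.4.6, scipy 1.17.1 and matplotlib 3.10.9.

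The 10 genes and the other lists were chosen with earlier results of these data known. All 10 were named, and from each other list the 2 genes with the highest and the 2 with the lowest log2 fold change among those that passed in a cell type. The values of 1 gene of these lists are not reported here. Samples of HEK293 with the same replicate number deviated together from their group means (r = 0.302 to 0.59), so the blocked value stands beside a HEK293 result where it changed the call. Every pair of replicates differed by more than counting noise (chi-square per degree of freedom 3.01 to 112). Counts were also simulated with 200 changed genes and a dispersion of 0.05 for every gene, which was not fitted to these samples. The share recovered at a log2 fold change of 1 was 52% in HepG2 and 28% in HEK293, and 9% for the difference between these lines. At a log2 fold change of 2 it was 100%, 85% and 74%. These shares describe that setting and not the power of the tests above.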

Additional observations from a re-analysis of the deposited data

Results flagged for a closer look

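The UV effect differed between cell types, by the interaction test of edgeR, for 1 of 28 named genes tested in human and 9 of 23 in mouse, where 7.95% and 24.5% of all genes passed. Most of these genes were named for a high or low UV effect in 1 cell type, so their counts are no independent evidence. KAT5 had a value 0.54 higher in HepG2 than in HEK293 (log2 scale, edgeR adjusted p = 0.046), and was the only named gene to pass between the human lines. Between Neuro2a and HippCulture the difference was −2.33 for Trp53inp1 (edgeR adjusted p = 0.0011), −1.11 for Cdkn1b (adjusted p = 2.4e-05), −1.09 for Prkdc (adjusted p = 0.00032), −0.88 for Mdm4 (adjusted p = 0.00017), −0.85 for Rrm2b (adjusted p = 0.014), −0.61 for Atm (adjusted p = 0.011) and −0.53 for Sesn3 (adjusted p = 0.025), lower in Neuro2a each time. Rps27l and Bad were higher in Neuro2a, by 0.52 and 0.48 (edgeR adjusted p = 0.013 and 0.026). The median difference of all genes was −0.14 there, and −0.77 with library sizes alone. Groups of 3 samples were too small for a test of single outlying samples.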

How the results depend on the processing

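Scaling by library sizes alone was the alternative that turned directions. In HepG2 it put CDKN1A at −0.58, GADD45A at −0.36, BBC3 at −0.26, BTG2 at −1.25, SESN1 at −1.15, SESN2 at −0.53, PPM1D at −1.30, FAS at −0.81 and KAT5 at −0.19 on the log2 scale. In HEK293 it put CDKN1A at −0.17, GADD45A at −0.11, BTG2 at −0.71, SESN2 at −0.16, PPM1D at −0.69 and CHEK2 at −0.27. In Neuro2a it put Cdkn1a at −0.62, Gadd45a at −0.99, Bbc3 at −0.037, Sesn1 at −1.02, Sesn2 at −0.91, Ppm1d at −0.72 and Kat5 at −0.42, and 7 genes of the set were called where 4 had been. In HippCulture it put Sesn1 at −0.26 and Sesn2 at −0.58. The level difference between HepG2 and HEK293 became −0.53 for MDM2, −0.085 for BBC3 and −0.35 for PPM1D, and the difference in UV effect between Neuro2a and HippCulture −0.63 for Mdm2. Over all genes the calls higher and lower went from 7660 and 8189 to 1734 and 15830 in HepG2, from 4962 and 5405 to 1557 and 11168 in HEK293, from 5033 and 5746 to 1058 and 12852 in Neuro2a, and from 4822 and 4791 to 1320 and 9149 in HippCulture. By its construction this scaling keeps the shift of the bulk of the RNA in every gene. The only other reversal was PPM1D in HepG2, at −0.27 among genes with at least 10 counts in every sample, and the cause was not tested. A further 96 values that passed in neither fit changed sign.

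The 2 calls of the set in HippCulture became 1 with the DESeq2 test, with no filter beyond 1 count and with at least 10 counts in every sample, and 1 to 5 without 1 sample. In the first 3 of these settings the calls among all genes, higher and lower, were 4054 and 3912, 4584 and 4894, and 4166 and 4233. For the difference between HepG2 and HEK293 the count of 0 became 2 with library sizes alone, 1 with the DESeq2 test and 1 with the replicate block, and 0 to 1 without 1 sample. Calls among all genes, higher and lower, went from 520 and 812 to 120 and 2930, 899 and 1114, and 2092 and 1443 in that order. For the difference between Neuro2a and HippCulture the count of 0 became 3 with library sizes alone, 1 with DESeq2's size factors, 1 with its test, 1 without a filter and 1 with the replicate block (Bbc3, 0.85), and 0 to 1 without 1 sample. Calls among all genes went from 1256 and 2411 to 64 and 7519, 1765 and 1898, 1651 and 1733, 766 and 2664, and 1854 and 3039. Replicate numbers were not taken as pairs in HepG2 (r = −0.01 to 0.036), Neuro2a (0.083 to 0.228) and HippCulture (0.048 to 0.126), where the block added the calls of Sesn2 in Neuro2a (0.28) and Bbc3 in HippCulture (0.30). The other calls of the 10 genes in HepG2 and HEK293 kept their direction under every alternative but library sizes alone.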
